A study of Homo sapiens with 22 samples.

Results

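The regions described here are stable CTCF sites that also carried cohesin and were free of acetylation calls in K562, a human leukemia cell line of erythroid character. They were chosen by overlap with deposited peaks: a CTCF region on chromosomes 1 to 22 or X had to overlap, by at least 1 bp, a peak in each of 6 CTCF libraries and each of 4 Rad21 libraries, and no peak of 6 H3K27ac libraries. Of 65346 CTCF regions on these chromosomes, 12691 had a peak in all 6 CTCF libraries, 3497 of those had a peak in all 4 Rad21 libraries, and 1626 of those had no H3K27ac peak. The 1626 sites are 2.49% of the regions. All cells came from cultures given 25 nM PMA, a phorbol ester, for 0, 6 or 72 h, and all were fixed with 1% formaldehyde for 10 min. The names of all columns of counts carry WT, which is read as wild type. The assay, CNR in the titles, is read as CUT&RUN: a nuclease tethered by an antibody cuts out DNA at the bound protein. The 22 libraries form 11 groups of 2, with 3 times for CTCF, H3K27ac and Jun, and no 6 h group for Rad21. The labels do not say whether the 2 libraries of a group came from separate cultures, so p-values measure the spread between these libraries. The 0 h libraries are the controls of the time course.

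CTCF is a zinc-finger protein that binds a long, oriented DNA motif and acts as an insulator. Cohesin, a ring that contains the subunit Rad21, extrudes chromatin loops and is held back where it meets CTCF, so that sites with both proteins are typical loop anchors. H3K27ac marks active promoters and enhancers, and Jun is a subunit of AP-1, a transcription factor that phorbol esters activate.

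The label of the sites was checked against sequence where sequence was at hand. RefSeq promoter windows of GRCh38.p14 (250 bases before to 50 after a gene's start) numbered 34961, and 37 of them touched 31 of the sites. A 12-base CTCF core consensus, searched on both strands, was present in 10 of these 37 windows (27%), against 513 of all windows (1.47%). A looser form that includes the first, CCNNNAGNNGGC, was present in 15 of the 37 (40.5%) and in 10.6% of all windows. Where the CTCF summit itself lay inside the window, 7 of 16 windows (43.8%) held the core consensus. The same share was 25.9% of 27 windows at stable CTCF peaks with neither a Rad21 nor an H3K27ac peak, and 18.8% of 223 windows at stable CTCF and Rad21 sites with acetylation. It was 27.1% of 214 windows at the other stable CTCF sites. These shares are descriptions over few windows. All 16 windows at the sites belonged to those called the remaining sites further on. No narrow or dense-bin site, as defined there, was checked for the consensus in a window that held its summit. The stretches below come from the 7 consensus-bearing windows and lie within the CTCF regions, given 5′ to 3′ on the gene's strand. The consensus lay 72.0 to 244 bp from the CTCF summit, not at it. Capitals mark the consensus.
BDH2, minus strand, chr4:103099922-103099993: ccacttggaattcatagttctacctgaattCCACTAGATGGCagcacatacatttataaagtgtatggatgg
LOC124900823, plus strand, chr4:183472381-183472452: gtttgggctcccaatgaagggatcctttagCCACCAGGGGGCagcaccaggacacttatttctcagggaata
LOC124901768, plus strand, chr7:148966920-148966991: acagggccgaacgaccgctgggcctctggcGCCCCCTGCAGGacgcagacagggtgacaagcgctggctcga
LOC105369764, minus strand, chr12:49967136-49967165: gacgacgtcGCCCTCTGCTGGccagagctg
LOC124903549, minus strand, chr15:89358735-89358806: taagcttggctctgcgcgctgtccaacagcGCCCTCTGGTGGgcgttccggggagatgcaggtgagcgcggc
ABCA3, minus strand, chr16:2340729-2340795: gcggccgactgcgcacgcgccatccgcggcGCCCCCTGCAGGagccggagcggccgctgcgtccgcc
LINC02168, plus strand, chr16:50806699-50806721: tgagctagcGCCATCTACTGGgc

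In the windows of BDH2, an enzyme gene of ketone body and siderophore metabolism, and of LOC124900823 the consensus reads along the gene's strand, and in the other 5 it reads on the opposite strand. Read in the direction of the motif, the median CTCF summit lay downstream of the motif's centre in all 7 windows. The distance ran from 72.0 bp at BDH2 to 244 bp at LOC105369764. Rad21 summits of the 4 libraries lay downstream in 24 of 28 cases. The 4 upstream cases were 1 library at BDH2, 1 at LOC124901768 and both 0 h libraries at LOC124900823. At ABCA3, which encodes a lipid transporter of lung epithelium, the 4 Rad21 summits lay 99, 144, 124 and 110 bp downstream, on the same side as the CTCF summit at 164 bp. Counting every touched window whose consensus lay inside the CTCF region, the CTCF summit was downstream of the motif in 9 of 9 windows at the sites described here. It was downstream in 39 of 59 windows at acetylated stable sites with cohesin, in 10 of 12 at stable sites with neither call, and in 65 of 93 at other stable CTCF sites, and several windows can touch 1 site. The difference between these shares was not tested.

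The CTCF levels at these promoter sites are normalised counts (CPM), from deposited counts divided by library totals that were adjusted by trimmed means. At LOC105369764 the 6 libraries gave 174.3 and 164.5 CPM at 0 h, 105.9 and 159.1 at 6 h, then 92.4 and 80.4 at 72 h. At ABCA3 they gave 65.5 and 46.5, then 36.9 and 55.3, then 30 and 25.6. At all 7 of these promoter sites both 72 h libraries lay below both 0 h libraries. At LINC02168, a long non-coding RNA gene, the values were 127.4 and 129.5, then 84.5 and 128.6, then 103.9 and 113.4, with 6 h and 72 h libraries interleaved.

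Total counts in regions ran from 2553677 to 6068421 over the CTCF libraries, the Rad21 libraries held 4398797 to 7285286, the Jun libraries 4766421 to 18883962 and the H3K27ac libraries 12634261 to 27266241. The sites took between 5.33% and 7.18% of the counts of each CTCF library, with a median count per site of 89.0 to 194.5. Mitochondrial regions took 17.8% and 22.1% of the CTCF counts at 0 h. They took 30.5% and 20.4% at 6 h, then 9.55% and 9.63% at 72 h. For Jun the shares were 24.0% and 27.7%, then 21.3% and 18.1%, then 9.07% and 8.58%. Rad21 had 34.1% and 24.8% at 0 h, then 30.6% and 30.1% at 72 h. The CTCF and Jun shares were thus lowest in both 72 h libraries. In the 7 mitochondrial CTCF regions the median log2 fold change at 72 h against 0 h was -1.29. The part of these shares in the 72 h changes was not tested. As a check of the cell line, both 0 h H3K27ac libraries had peaks within the spans of TAL1 and KLF1, erythroid transcription factor genes, and 1 of the 2 had a peak within GATA1. In bulk chromatin, a change in the share of cells with a bound site and a change in binding per cell cannot be told apart.

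The 1626 sites were a mixture. The width of the CTCF region had a median of 651 bp (quartiles 511 and 735), but 148 sites (9.1%) were 375 to 385 bp wide, and 109 of these were exactly 380 or 381 bp. In that range fell 2.66% of all CTCF regions, and 0.316% of stable CTCF sites with no Rad21 and no H3K27ac peak. Of the 1871 stable CTCF and Rad21 sites with acetylation, 75 (4.01%) fell in it, 57 of them at 380 or 381 bp. Of the other stable CTCF sites 0.118% did. A further 169 sites (10.4%) lay in 7 bins of 1 Mb that each held at least 10 sites. These bins were chr1:122510804-124784607 with 25, 37 and 35 sites, chr10:40005915-41915096 with 23 and 15, and chr13:16231611-17861392 with 17 and 17. They lie at the centromeres of these chromosomes, which consist of repeated satellite DNA. None of the 169 overlapped an annotated gene span. In what follows, sites in the dense bins (169), narrow sites of 375 to 385 bp outside them (141) and the remaining sites (1316, 80.9%) are given separately. The division was made after the values had been seen, so it is a description and carries no test. The limit of 10 sites per bin also leaves some sites like those of the dense bins among the remaining ones.

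**Figure D1:**
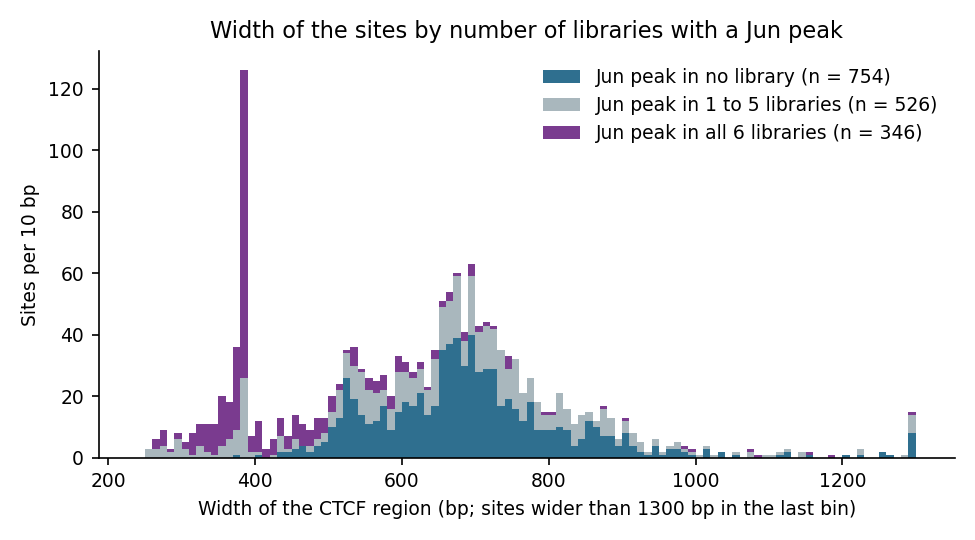
Widths of the 1626 sites in steps of 10 bp (horizontal axis, bp; vertical axis, sites per step), coloured by how many of the 6 Jun libraries had a peak there. A tall column that starts at 380 bp is made almost wholly of sites with Jun peaks, and the 754 sites without a Jun peak form a broad hump with a median of 681 bp.

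Jun peaks, which played no part in choosing the sites, were present at some and not at others. No Jun library had a peak at 754 sites (46.4%), 526 had a peak in 1 to 5 libraries and 346 (21.3%) in all 6. Of all 65346 CTCF regions 60.5% had no Jun peak and 11.1% had one in all 6 libraries. By library, 507 and 546 sites had a Jun peak at 0 h, 467 and 453 at 6 h, then 690 and 678 at 72 h, when the Jun lists themselves were longest. All 169 dense-bin sites and all 141 narrow sites had a Jun peak in at least 1 library, and 126 and 114 of them in all 6. Of the remaining 1316 sites, 42.7% had any Jun peak and 106 (8.05%) had 6. For comparison, 86.6% of stable cohesin sites with acetylation had a Jun peak, 8.28% of stable CTCF sites with neither Rad21 nor H3K27ac peaks did, and 24.8% of the other stable CTCF sites did.

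The narrow sites also stood apart in the sharpness of their peaks. Over the 6 CTCF libraries their summit positions spanned a median of 6.0 bp, against 54.0 bp in the dense bins and 96.0 bp at the remaining sites. The median Rad21 summit lay a median of 0.5 bp from the median CTCF summit at narrow sites, 9.0 bp in dense bins and 34.5 bp (quartiles 13 and 89.1) at the remaining sites. Over all 1626 sites the distance was 25.5 bp, and 67.3% of sites had it within 50 bp. Jun summits of narrow sites lay a median of 0.0 to 1.0 bp from the median CTCF summit in the 6 Jun libraries, so that all 3 antibodies gave peaks at nearly the same base. The sharp summits go with sites that carry many of the calls given further on, and the reads at these sites were not examined here. The 4 Rad21 libraries taken singly had a mean of medians of 34.2 bp ± 2.4 (SD, n = 4). At the acetylated sites with cohesin the distance was 37.5 bp, and 18.4% of them exceeded 150 bp, against 10.4% of the remaining sites. Within each peak list, narrow sites ranked at a median percentile of fold enrichment (the authors' value) of 64.1 and 84.5 in the 0 h CTCF libraries, 98.4 and 99.0 in those of 6 h, and 93.4 and 99.1 in those of 72 h. In the 4 Rad21 lists they ranked at 98.6 to 99.4. The remaining sites ranked at 76.4 to 88.6 in the 6 CTCF lists and at 61.1 to 85.4 in the 4 Rad21 lists.

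**Figure D2:**
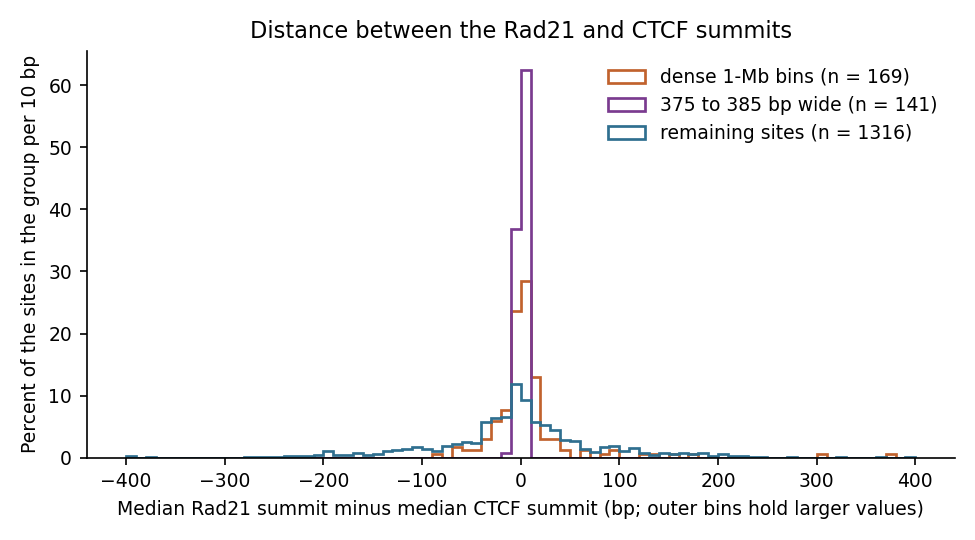
Distance in bp from the median CTCF summit to the median Rad21 summit of each site, as percent of the sites of each group per 10 bp. Narrow sites (141) pile up within a few bp of 0, dense-bin sites (169) close to it, and the remaining sites (1316) spread to about 150 bp on both sides.

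CTCF signal at the sites, per kb of region to allow for width, was followed in each library. At the remaining sites the median was 51.5 and 56.0 CPM per kb at 0 h, 46.7 and 54.6 at 6 h, then 40.1 and 41.5 at 72 h. The 72 h medians were below both earlier times. At narrow sites it was 22.7 and 36.4 at 0 h, 115.9 and 123.9 at 6 h, then 35.1 and 61.7 at 72 h, so that both 6 h libraries were far above all others. In the dense bins it was 71.8 and 56.6, then 111.1 and 56.6, then 94.7 and 67.1. There replicate 1 was above replicate 2 at each time, and the times overlapped.

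**Figure D3:**
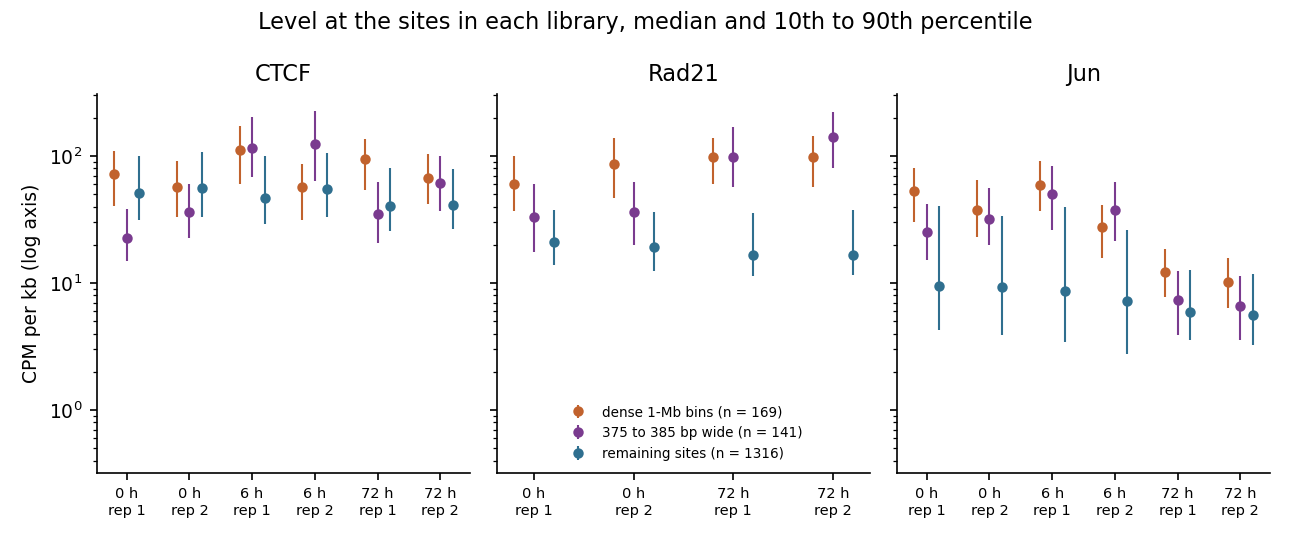
Median level in CPM per kb (log axis), with the 10th to 90th percentile of sites as bars, in each CTCF, Rad21 and Jun library, for dense-bin, narrow and remaining sites (n in the key; Jun and Rad21 values are of the regions of those tables that overlap the sites). CTCF at narrow sites peaks in both 6 h libraries, Rad21 at narrow sites is highest in both 72 h libraries, and Jun is lowest in both 72 h libraries in all 3 groups.

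The CTCF changes are descriptions, because the same libraries chose the sites. By edgeR's quasi-likelihood test with Benjamini-Hochberg adjustment over 58156 regions, 160 sites were called higher at 6 h than at 0 h and 1 lower, where 2.33% and 0.325% of all regions were called. At narrow sites 128 of 141 were called higher, so that most of the 160 were narrow, with a median log2 fold change of 2.1 (quartiles 1.74 and 2.41). None of the dense-bin sites was called by edgeR or DESeq2 (13 were higher at an unadjusted p under 0.05), and 32 of the remaining sites were higher and 1 lower, with a median of -0.08. Those 32 had a median width of 359 bp, and 31 of them had a Jun peak in 4 or more libraries. None of the 754 sites without a Jun peak was called at 6 h by edgeR or DESeq2, where 5 were higher and 22 lower at an unadjusted p under 0.05. Without replicate 1 of the 0 h CTCF libraries edgeR called no site higher at 6 h (181 at an unadjusted p under 0.05; DESeq2 on all libraries called 153), and without replicate 2 of the 6 h libraries 245 were.

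At 72 h against 0 h, 34 sites were called higher and 80 lower, against 4.07% and 2.72% of all regions, and the median over sites was -0.30 against 0.03 over all regions. All 80 lower calls were among the remaining sites, whose median was -0.41, and 53 of them were among the 754 sites without a Jun peak. They are 6.08% of the remaining sites. At other stable CTCF sites 6.61% were lower (median -0.38), and at acetylated stable sites with cohesin 7.06% (median -0.32). At stable sites with neither Rad21 nor H3K27ac peak 3.48% were lower (median -0.29). The fall was thus not particular to the sites described here. Of the 80, 17 also had a Rad21 region called lower. The direction of these calls depended on scaling. With total counts in place of trimmed means, the sites had 77 higher and 9 lower calls, so the share of higher calls went from 29.8% to 89.5%, while the median over all regions moved from 0.03 to 0.26. The site median stayed below that of all regions, at -0.07. Without any 1 of the 0 and 72 h libraries the lower calls numbered at most 2, and without a 6 h library 331 or 351. The higher calls numbered 0 without either 0 h library (edgeR; 54 and 101 at an unadjusted p under 0.05), 2 without replicate 2 of 72 h, and 95 or 97 without a 6 h library. From 6 to 72 h, 4 sites were called higher and 128 lower, against 0.449% and 1.73% of regions, and 88 of the 128 were narrow sites, whose median was -1.48. Without replicate 1 of 6 h 242 sites were lower, and without replicate 1 of 72 h 24.

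Rad21 had a peak in all 4 libraries by the choice of sites, and its change is again a description. At the remaining sites the median Rad21 level was 21.2 and 19.3 CPM per kb at 0 h, then 16.5 and 16.6 after 72 h. Narrow sites had 33.4 and 36.1, then 97.7 and 140. Dense-bin sites had 59.9 and 86.2, then 97.5 and 98.6. Both 72 h libraries were thus below both 0 h libraries at the remaining sites and above them in the other groups. By edgeR, 212 of 1666 tested Rad21 regions at the sites were called higher and 121 lower at 72 h, against 15.4% and 7.91% of 83750 regions. Of 141 regions at narrow sites 136 were higher, the greater part of the 212, with a median log2 fold change of 1.74, and of 171 in dense bins 23. At the remaining sites 53 (3.91%) were higher and 121 (8.94%) lower, with a median of -0.26 against -0.05 over all regions. The share lower was near the 7.91% of all regions, and DESeq2 called 23 lower at these sites. The share lower was 13.6% at other stable CTCF sites (median -0.43) and 7.49% at acetylated stable sites with cohesin (median -0.05). The lower calls and the lower median at the remaining sites were thus not particular to them. Of the 53 sites behind the higher calls, 45 had a Jun peak in 4 or more libraries. With total counts the split over all sites became 174 higher and 280 lower, from 63.7% to 38.3% higher. Without replicate 1 of the 0 h libraries 13 were lower, and without replicate 1 or 2 of the 72 h libraries 2 or 5.

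**Figure D4:**
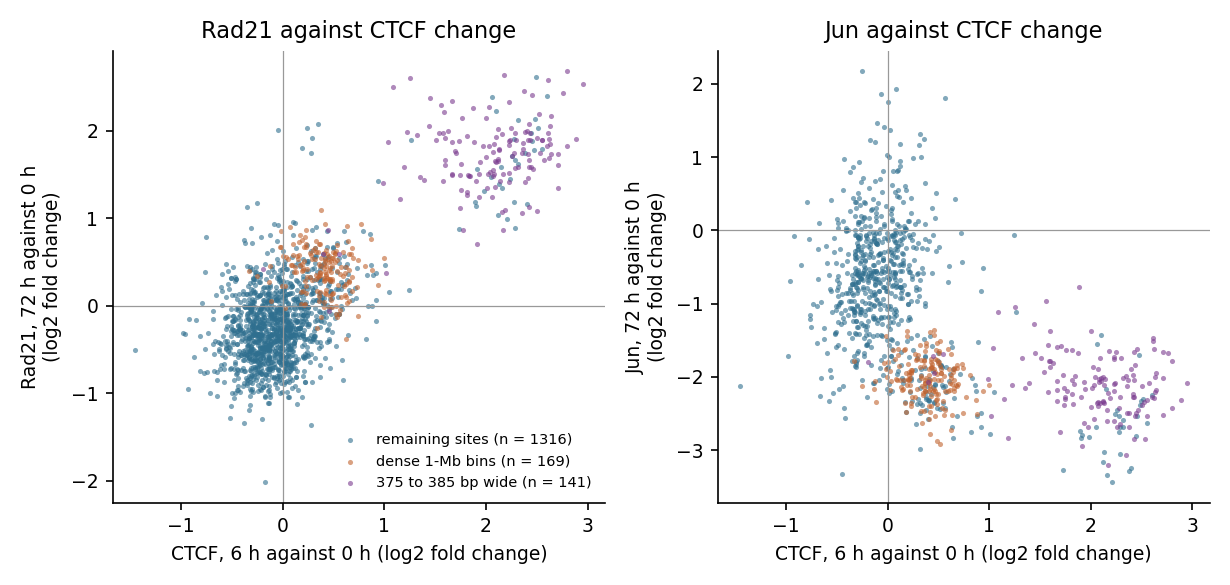
Each point is a site: the log2 fold change of CTCF at 6 h against 0 h (horizontal axis) beside that of Rad21 (left) or Jun (right) at 72 h against 0 h (vertical axes). Most of the narrow sites (141) form a group of their own at the right, with CTCF and Rad21 higher and Jun lower. Some narrow sites lie outside this group, and a few of the remaining sites fall within it.

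Jun counts were the measure that the choice of sites had not used. Jun regions overlapped 1035 of the 1626 sites, and 591 sites had no Jun region. Among 1035 Jun regions tested, 21 were called higher and 613 lower at 72 h than at 0 h by edgeR with Benjamini-Hochberg adjustment, a median log2 fold change of -1.28. Over all 132947 Jun regions 28.0% were higher and 25.7% lower, with a median of 0.17. All 172 Jun regions in dense bins fell (median -2.03), as did all 141 at narrow sites (median -2.1), and 300 of 722 at the remaining sites fell while 21 rose (median -0.74). The 8 mitochondrial regions of the Jun table, in DNA that is not packaged in nuclear chromatin, had a median of -2.11 (from -2.39 to -1.98) in the same fit. Their part in the result was not tested. In the same fit, stable cohesin sites with acetylation had 94 Jun regions higher and 1196 lower of 1830 (median -1.04). Stable CTCF sites with neither Rad21 nor H3K27ac peak had 19 higher and 25 lower of 164 (median 0.07). The other stable CTCF sites had 213 higher and 801 lower of 2490 (median -0.53). A fall in Jun was thus not particular to the sites described here. With total counts, which moved the median of all Jun regions from 0.17 to 0.73, 491 Jun regions at the sites were lower and 56 higher. The 21 higher calls became 12 without replicate 2 of 0 h and 8 or 7 without a 72 h library. With total counts the median was -1.47 in dense bins, -1.53 at narrow sites and -0.18 at the remaining sites.

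At 6 h against 0 h, 61 Jun regions at the sites were called higher and 60 lower, against 13.1% and 12.2% of all regions. Of the narrow sites 42 of 141 were higher (median 0.53), and of the remaining sites 19 were higher and 59 lower of 722. The share of higher calls, 50.4%, became 76.0% with total counts. Without replicate 1 of 0 h, 24 were higher and 37 lower, and without replicate 2 of 0 h 36 were lower. Without replicate 1 of 6 h, 37 were higher and 201 lower, without replicate 2 of 6 h 93 were higher, and without a 72 h library 38 or 23. The Jun levels behind these calls were low outside the narrow and dense groups. The remaining sites had medians of 9.46 and 9.27 CPM per kb at 0 h, 8.64 and 7.16 at 6 h, then 5.89 and 5.61 at 72 h. Narrow sites had 25.3 and 32.0, then 50 and 37.8, then 7.38 and 6.59, and both 72 h libraries lay below all others.

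Single Jun regions show both ends. In the span of LINC03066, a non-coding gene, the Jun region chr6:189323-189756 had 0.292 and 0.717 CPM at 0 h, 2.72 and 1.46 at 6 h, then 4.42 and 2.72 at 72 h. These rest on 2 and 5 reads at 0 h, against 93 and 64 after 72 h. The log2 fold change at 72 h was 2.79 (SE 0.57, edgeR adjusted p = 0.000316), and leaving out 1 library gave 2.29 to 3.56. A Jun region near MTFMT, a mitochondrial formyltransferase gene, at chr15:65032611-65033149 rose by 1.93 (SE 0.55, edgeR adjusted p = 0.00565), from 1.02 and 0.287 CPM to 2.71 and 2.33, and leaving out 1 library gave 1.3 to 3.09. The second of the 3 largest rises, near LOC105375657 on chromosome 8, was 2.17 (SE 0.31), from 14 and 13 reads to 198 and 194. In these 3 regions both 72 h libraries were above both 0 h libraries.

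The largest fall was at chr11:122565219-122565509, nearest to the tRNA gene TRK-TTT2-1, with 9.04 and 6.88 CPM at 0 h, 4.77 and 6.93 at 6 h, then 0.999 and 0.467 at 72 h. It fell by 3.44 on the log2 scale (SE 0.37, edgeR adjusted p = 2.30e-07). At chr5:31002233-31002551, nearest to the pseudogene RPL19P11, Jun went from 16.2 and 16.8 CPM through 20.9 and 17 to 1.9 and 1.36 and fell by 3.34. Near ADAMTS1, a secreted metalloprotease gene, the region chr21:26849868-26850173 went from 4.52 and 3.3 CPM to 0.238 and 0.509 and fell by 3.33 (SE 0.55). The 0 h and 72 h libraries did not overlap in any of the 3.

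By mean CTCF level over the 6 libraries, the sites spanned 7.34 to 475.9 CPM with a median of 32.1. The strongest was chr22:22954324-22956263, 1940 bp wide and nearest to LOC105372947, with 484.5 and 461.9 CPM at 0 h, 407.2 and 550.4 at 6 h, then 498.1 and 453 at 72 h, and no Jun peak in any library. Its neighbour chr22:22959183-22959805, nearest to the pseudogene ATP5PFP2, had 240.1 and 253.7, then 256.4 and 329.5, then 381.1 and 330. Per kb the second was the denser, at 479.1 against 245.3 CPM per kb. The 14 sites on chromosome 22 between 22235371 and 23316052, a stretch that includes BCR, had a median of 121.2 CPM, and 9 of them were among the 50 strongest of all sites. The 7 sites on chromosome 9 between 130682313 and 131178784, which includes ABL1, had a median of 90.8, and 3 were among the 50. BCR and ABL1 are the fusion partners that K562 is known to carry in many copies, and the part of copy number in these levels was not tested.

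Of the next strongest sites, chr1:143227373-143228039, nearest to LOC101929814, had 295.7 and 196.7 CPM at 0 h, 424.7 and 194.1 at 6 h, then 295.6 and 217.2 at 72 h, with Jun peaks in all 6 libraries and replicate 1 above replicate 2 throughout. A site in CACNB4, which encodes a calcium channel subunit, at chr2:152025493-152026142, had 284.2 and 356.2, then 214.6 and 295.8, then 159.9 and 175.6. Its 72 h libraries were lowest, but the change of -0.93 (SE 0.34) did not pass (edgeR adjusted p = 0.0908). A site at chr1:204806848-204807605 near NFASC, a neuronal adhesion gene, had 253.4 and 257.6, then 207.8 and 279.1, then 178.3 and 163.8. The 3 weakest sites had means of 10.1 (in MYO1G, an unconventional myosin gene), 9.83 (near EMB) and 7.34 CPM (near LOC124909499).

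Among sites whose CTCF was called at 72 h, the largest rises were at a narrow site in MIR3667HG and at a site in ribosomal RNA genes. At chr22:49517244-49517623 in MIR3667HG the values were 5.61 and 10.8 CPM at 0 h, 22 and 25.2 at 6 h, then 23.7 and 43.8 at 72 h. At chr21:8212371-8212774 in RNA45SN2, a ribosomal RNA gene present in many near-identical copies whose reads cannot be placed with certainty, they were 97.4 and 57.7, then 126.6 and 72.0, then 342.4 and 311.2. The log2 fold changes were 2.1 (SE 0.35) and 2.07 (SE 0.36), and at both sites the 72 h libraries lay above both 0 h libraries. The largest falls were chr16:3003629-3004255, nearest to GREP1, and chr14:23068838-23069539 in ACIN1, a gene of RNA splicing and apoptotic chromatin condensation. The first had 60.4 and 69.3 CPM, then 23.3 and 24.0, then 13.1 and 16.7, and had fallen by 1.45 (SE 0.26) at 6 h and by 2.1 (SE 0.26) at 72 h. The second had 102.2 and 96.0, then 65.1 and 80.6, then 24.2 and 37.2, and fell by 1.68 (SE 0.29) at 72 h. These 4 sites passed the rule of a peak in every library in spite of changes of this size.

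For Rad21 the largest called rises were at 2 narrow sites, both 380 bp wide. At chr16:13736233-13736612, nearest to LOC124903645, Rad21 went from 6.92 and 5.7 CPM to 32.2 and 50.1. At chr6:75622013-75622392 in SENP6, a SUMO protease gene, it went from 5.98 and 6.75 to 30.8 and 48.4. The largest falls were at chr3:182713989-182714513, nearest to LOC107986054, from 21.5 and 20.5 to 4.91 and 5.47 CPM, and at chr3:23888567-23889211 in UBE2E1, a ubiquitin-conjugating enzyme gene, from 21.5 and 19.6 to 7.14 and 9.05. The log2 fold changes were 2.68 (SE 0.29), 2.64 (SE 0.29), -2.02 (SE 0.28) and -1.36 (SE 0.27) in that order. In all 4 the libraries of the 2 times did not overlap.

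The centres of the remaining sites lay a median of 25243 bp from the nearest RefSeq gene start (chromosome 8 not included), near the 23868 bp of all CTCF regions. Within 1000 bp of a start were 3.48% of the remaining sites, 4.95% of stable sites with neither call, 24.6% of acetylated stable sites with cohesin and 13% of all regions. The choice of sites removed regions with H3K27ac, a mark of active promoters, so nothing is read from the gap to the latter classes, both of which hold acetylated promoters. A protein-coding gene span held 43.3% of the remaining sites, 40.4% of narrow ones and 50.5% of all regions. The nearest H3K27ac peak of any library was a median of 9372 bp away for the remaining sites and 44204 bp for narrow sites. Neighbouring sites were spaced by a median of 705314 bp over all 1626 sites, and 70 of 1603 gaps were under 10000 bp. The longest stretch without a site ran for 32763126 bp on chromosome X, between chrX:76722087-76722446 and chrX:109485573-109486379. The tightest neighbours outside the dense bins, 105 bp apart, were chr10:38918824-38919421 and chr10:38919527-38920327. Chromosome 1 held 302 sites, of which 189 were in the remaining group.

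None of the sites overlapped, or had as its nearest gene, a member of 4 gene lists: architectural loci, erythroid and megakaryocyte genes, AP-1 and early response genes, and CTCF and cohesin genes. Neither this count nor that within 50 kb was made for all genes or for other CTCF sites. Avoidance of the listed genes can therefore not be read from either. Of the 146 listed genes matched in RefSeq, 12 had a site within 50 kb, and 8 of those are HOXD genes beside 1 site. That site, chr2:176126933-176127654, lay 1995 bp from HOXD9 and 2050 bp from HOXD8, homeobox genes of limb and trunk patterning. Its CTCF was 65.8 and 75.1 CPM at 0 h, 46.6 and 72.0 at 6 h, then 47.9 and 51.3 at 72 h. Its Rad21 was 18.7 and 14.4 and then 10.4 and 11.1, with neither change passing (edgeR adjusted p = 0.232 and 0.0896).

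A site 9181 bp from MYC, the growth-promoting transcription factor gene, had CTCF of 28.0 and 27.8 CPM at 0 h, 12.9 and 22 at 6 h, then 14.3 and 15.2 at 72 h. Both 72 h libraries were below both 0 h libraries, but the change of -0.92 (SE 0.28) did not pass (edgeR adjusted p = 0.053). Rad21 there was 8.33 and 9.29 and then 8.63 and 7.16. A site 17614 bp from FLI1, a megakaryocyte transcription factor gene, had CTCF of 25.5 and 22.7, then 22 and 26.4, then 18.7 and 27, and Rad21 of 6.13 and 5.28 and then 10.1 and 7.35, with neither change passing (edgeR adjusted p = 0.879 and 0.175). The site 35207 bp from KLF1 was a narrow one with CTCF of 5.61 and 9.38, then 29.8 and 19.9, then 7.83 and 9.83, high at 6 h alone. Rad21 there was 12.4 and 8.65 and then 18.3 and 20.7, and among the sites within 50 kb of a listed gene it was the one whose Rad21 change passed (log2 fold change 0.87, SE 0.27, edgeR adjusted p = 0.0219). A site 34183 bp from EGR1, an immediate early gene, had CTCF of 29.8 and 23.8, then 19.1 and 17.5, then 16.4 and 21.2, and its 72 h change did not pass (edgeR adjusted p = 0.205).

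The H3K27ac table, which pools regions over libraries, had 223 regions that overlapped 212 of the sites. Their median level was 3.41 and 3.44 CPM per kb at 0 h, 5.6 and 4.43 at 6 h, then 3.19 and 3.1 at 72 h. Over all H3K27ac regions the medians were 4.65 and 4.61, then 5.46 and 5.06, then 5.51 and 5.38. At 72 h 39 of the 223 were called higher and 37 lower, against 43.4% and 38.1% of 94865 regions. Nothing is read from these counts or levels, since the choice of sites used H3K27ac peaks.

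The acetylated regions on either side of a site were then followed, since insulators are known for separating neighbouring regulatory domains. Of 1376 pairs of neighbouring H3K27ac regions with a site between them, both members were called at 72 h against 0 h in 832 pairs. They had changed in the same direction in 513 of these (61.7%, 95% Wilson interval 58.3 to 64.9, which covers counting error only since neighbouring pairs share regions), 334 both higher and 179 both lower, and in opposite directions in 319. Distance differs between kinds of pairs, so the shares were compared within ranges of gap. The gaps were not fully matched within a range. Up to 10 kb the median gap was 5957 bp with a site between and 1812 bp with no CTCF region. Over 100 kb the medians were 225874 and 138706 bp. At 20 to 50 kb the share was 63.3% of 196 pairs with a site between, 62.8% of 1047 with another stable CTCF site, 69.2% of 2494 with another CTCF region and 72.1% of 4704 with no CTCF region. At 50 to 100 kb it was 56.6% of 159, 60.8% of 809, 67.0% of 1402 and 69.0% of 1070 in the same order. The correlation of the log2 fold changes over pairs, a description without a test, was 0.25 at 20 to 50 kb with a site between (350 pairs) and 0.53 with no CTCF region (7076 pairs). At 50 to 100 kb it was 0.14 and 0.45. At up to 10 kb the shares were 75% of 96, 76.4% of 690, 81.5% of 2378 and 88.1% of 36435. At 10 to 20 kb they were 69.6% of 125, 65.2% of 601, 74.3% of 1799 and 75.1% of 7562. In each of these ranges the share across the sites lay below that of pairs with no CTCF region between them. It lay within a few points of that across other stable CTCF sites. These differences were not tested. Using the 754 sites without a Jun peak, the share was 65.0% of 117 at 20 to 50 kb and 54.2% of 96 at 50 to 100 kb. At 10 to 20 kb it was 74.1% of 81, close to the 75.1% of pairs with no CTCF region. Whether the density of regulatory regions around the sites differs in a way that moves these shares was not tested.

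**Figure D5:**
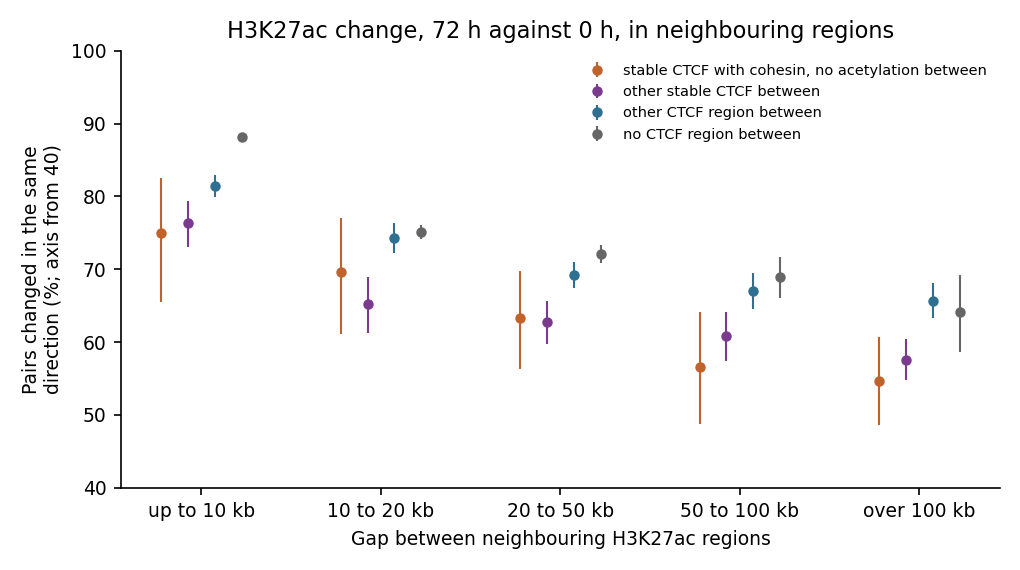
Percent of neighbouring H3K27ac region pairs, both called at 72 h against 0 h, that changed in the same direction (vertical axis, from 40%), by gap between the regions and by what lies between them; bars are 95% Wilson intervals. In each range of gap, pairs with a stable CTCF site between them sit below pairs with no CTCF region between them. Pairs across the sites described here sit beside pairs across other stable CTCF sites. Median gaps within a range differ between the kinds of pairs.

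The edge of the rule was gradual. The lowest −log10 q among a site's 10 required peaks had a median of 7.07 and a minimum of 2.56, and 6 sites had it under 3. Another 2090 regions without an H3K27ac peak met 9 of the 10 requirements, with a median mean CTCF of 24.9 CPM against 32.1 at the sites. Of these, 1047 lacked a peak in replicate 2 of the 72 h Rad21 libraries and 433 in replicate 1, while none lacked it in replicate 2 of the 72 h CTCF libraries. Without replicate 2 of the 72 h Rad21 libraries the rule gave 2673 sites.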

How the data were processed

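CTCF, Rad21, H3K27ac and Jun were profiled in 22 libraries, grouped by title. The authors deposited 4 tables of raw counts per region and, per library, a narrowPeak list with each peak's fold enrichment (a ratio), −log10 q-value and summit. Per the submitters' processing notes, Trim Galore 0.4.3, BWA 0.7.17, SAMtools 1.9, deepTools 3.0.1, MACS2 and bedtools 2.26 were used; their roles, the control and the treatment of reads that map to several places are not given in the sources used here. The notes name hg19 and hg38. CTCF regions on chromosome 20 reach position 64329258, beyond hg19's end, so coordinates are taken as hg38. Deposited region starts equal a 0-based peak start in 26956 of 66168 regions and the next base in 0, so 1 was added to starts.

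Counts of every region entered edgeR 4.0.16 under R 4.3.3: filterByExpr, TMM, glmQLFit and glmQLFTest over all times of an antibody, without a replicate block. Benjamini-Hochberg adjusted p-values under 0.05 were called, and log2 fold changes carry an SE of their size over the square root of F. CPM use TMM-scaled totals of tested regions. On simulated counts for 72 against 0 h with 200 regions changed 4-fold, 67.5% were recovered for CTCF (53409 regions), 53.0% for Rad21 (78202), 83.0% for H3K27ac (92285) and 76.5% for Jun (120508). In each library the peak with the highest fold in a site gave the summit. Neighbouring H3K27ac regions were paired along the chromosome among tested regions.

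Promoter windows on chromosome 8 were not used. Named sites were the 5 highest and 3 lowest in mean CTCF, up to 2 of the largest and smallest called changes of CTCF and Rad21 at 72 h, 3 each of Jun, the widest gap and tightest neighbours, and sites at listed genes. Sites within 50 kb of listed genes, those on chromosomes 9 and 22, and the division into dense-bin, narrow and remaining sites were chosen after values were seen. The sites and gene lists were chosen with earlier results of these data known. Alternatives were other scaling, DESeq2 1.42.0, other filters, a replicate block, only the 2 times compared, and leaving out each library. All columns of counts were matched to samples.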

Additional observations from a re-analysis of the deposited data

How the results depend on the processing

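Of 170 recomputed values over 13 results, 109 kept the direction and stayed within the limits used (1.5 times for a count) and 61 moved. Requiring a −log10 q of at least 10 left 599 sites, and leaving out 1 library gave 1626 to 2673. CTCF calls at 6 h: 32 higher outside dense bins and narrow widths, and 0 to 245 without 1 library. Higher CTCF calls at 72 h numbered 14 (DESeq2), 97 (2 times compared), 77 (total counts), 5 (outside dense bins and narrow widths) and 0 to 97 without 1 library. Lower ones numbered 30, 372, 9 under the first 3, 7 with a mean count of at least 50, and 0 to 351 without 1 library. From 6 to 72 h, lower calls were 39 with a mean count of at least 50, 40 outside dense bins and narrow widths, and 24 to 242 without 1 library. Rad21 higher calls were 53 outside dense bins and narrow widths and 160 to 292 without 1 library. Lower ones were 23 (DESeq2), 67 (no filter), 280 (total counts) and 2 to 144 without 1 library. Jun at 6 h had 20 (DESeq2), 39 (2 times), 114 (total counts), 19 (outside) and 23 to 93 (without 1 library) higher, and 36 (DESeq2), 36 (total counts) and 36 to 201 lower. At 72 h Jun had 7 (DESeq2), 11 (mean count of at least 50), 56 (total counts) and 7 to 24 higher, and 300 (outside) and 521 to 671 lower. The share of acetylation pairs in the same direction was 55.3% with a mean count of at least 50, 67.9% up to 50 kb, and 61.5% to 62.2% without 1 library. The Rad21 summit distance was 34.5 bp outside dense bins and narrow widths and 24.5 to 27 bp without 1 library. With the replicate number as a block, higher and lower CTCF calls at 72 h were 75 and 225, and no other count moved by over 1.5 times. Same-numbered libraries deviated together only weakly (r of 0.0796 to 0.124 for CTCF, -0.022 to 0.061 for the rest), so the numbers were not taken as pairs. The causes of these moves were not tested, apart from fewer samples or fewer regions where an alternative removes them. Depth limits the largest Jun rises, behind which lie 2 to 14 reads per library at 0 h.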
